A study of Mus musculus with 6 samples.

Results

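Collagens, the triple-helical proteins of the extracellular matrix, were described as a gene family in 2 neighbouring pieces of the embryonic mouse midbrain, the floor plate and the ventral lateral region beside it. The members were all probe sets annotated to a single gene symbol of the form Col, a type number, a and a chain number. This gave 82 of 45101 probe sets on the array, for 42 of 18193 genes with a probe set of their own. The rule reads gene symbols only. The fibrillar class (types I, II, III, V, XI, XXIV and XXVII) held 21 probe sets of 11 genes, the basement membrane class (types IV, XV and XVIII) 15 probe sets of 8 genes, and the remaining collagens 46 probe sets of 23 genes.

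The tissue came from C57BL/6 embryos of mixed sex at embryonic day 10.5. Each region had 3 samples, and every sample combined tissue from 6 embryos. From each, 5 ng of total RNA was amplified, labelled with biotin and hybridised to an Affymetrix array. The labels do not say whether pools of the 2 regions shared embryos, so the p-values measure the spread between these samples only. The value of a probe set on an array is its log ratio to the median of that probe set over the 6 arrays, read here on the log2 scale with a higher value meaning more RNA, since neither base nor direction is stated. A value therefore shows how arrays differ and not how strongly a gene is expressed. Where the regions do not overlap, the 2 innermost values mirror each other around 0 by this construction. The floor plate markers Corin, Foxa1, Foxa2, Lmx1a and Shh were all higher on the arrays labelled floor plate and 4 of 4 ventral lateral markers were lower, so labels and direction fit each other.

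Collagen chains are made in the endoplasmic reticulum, where prolines and lysines are hydroxylated before chains of matching type wind into a triple helix. Fibrillar collagens are secreted, trimmed at both ends, assembled into fibrils and cross-linked. Type V is built into fibrils of type I and III and limits their diameter, whereas type IV forms the sheet-like network of basement membranes. In the embryonic brain, a basement membrane underlies the neuroepithelium at its pial surface. Endothelial cells, pericytes and meningeal mesenchyme around the neural tube also make collagens.

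Collagens that differed between the regions were higher in the floor plate. Among the 82 probe sets, 15 (18.3%) were higher in the floor plate at an adjusted p under 0.05, against 2.70% of all 45037 probe sets tested, and 0 were lower, against 2.01% of all. These were calls of limma fitted to all probe sets with Benjamini-Hochberg adjustment. At an unadjusted p under 0.05, 23 collagen probe sets were higher and 3 lower, against 8.37% and 8.12% of all probe sets. The 15 called probe sets belonged to 9 genes, namely Col4a1, Col4a2, Col4a5, Col18a1, Col5a1, Col5a2, Col6a3, Col16a1 and Col22a1. Averaging the probe sets of each gene called the same 9 of 42 genes higher (background 4.55% of genes) and 0 lower (background 3.58%). At an unadjusted p under 0.05, 15 genes were higher and 2 lower, against 10.6% and 9.65% of all genes. The 3 floor plate arrays lay above the 3 ventral lateral arrays in 25 of 82 collagen probe sets, against 11.5% of all, and below them in 4, against 11.0%. With probe sets averaged, 17 of 42 genes were separated upwards, against 13.5% of all genes, and 2 downwards, against 12.6%. The median difference of the 82 was 0.11, that of all probe sets -0.0040.

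The calls were unevenly spread over the classes. Of the basement membrane probe sets, 6 of 15 (40%) were higher, against 2.70% of all probe sets, and the median difference was 0.58. In the fibrillar class 4 of 21 (19%) were higher, all of type V, around a median of 0.03. Of the remaining collagens, 5 of 46 (10.9%) were higher, around a median of 0.09 and over a range from -0.71 to 1.68. These medians describe the classes, and the difference between classes was not tested. The number of arrays limits these counts: 6 collagen probe sets were called higher if floor plate replicate 1 was left out, 9 without floor plate replicate 2, and 8 without replicate 1 or 3 of the ventral lateral region. By the mean of probe sets, between 7 and 9 genes were higher when any one array was left out.

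**Figure D1:**
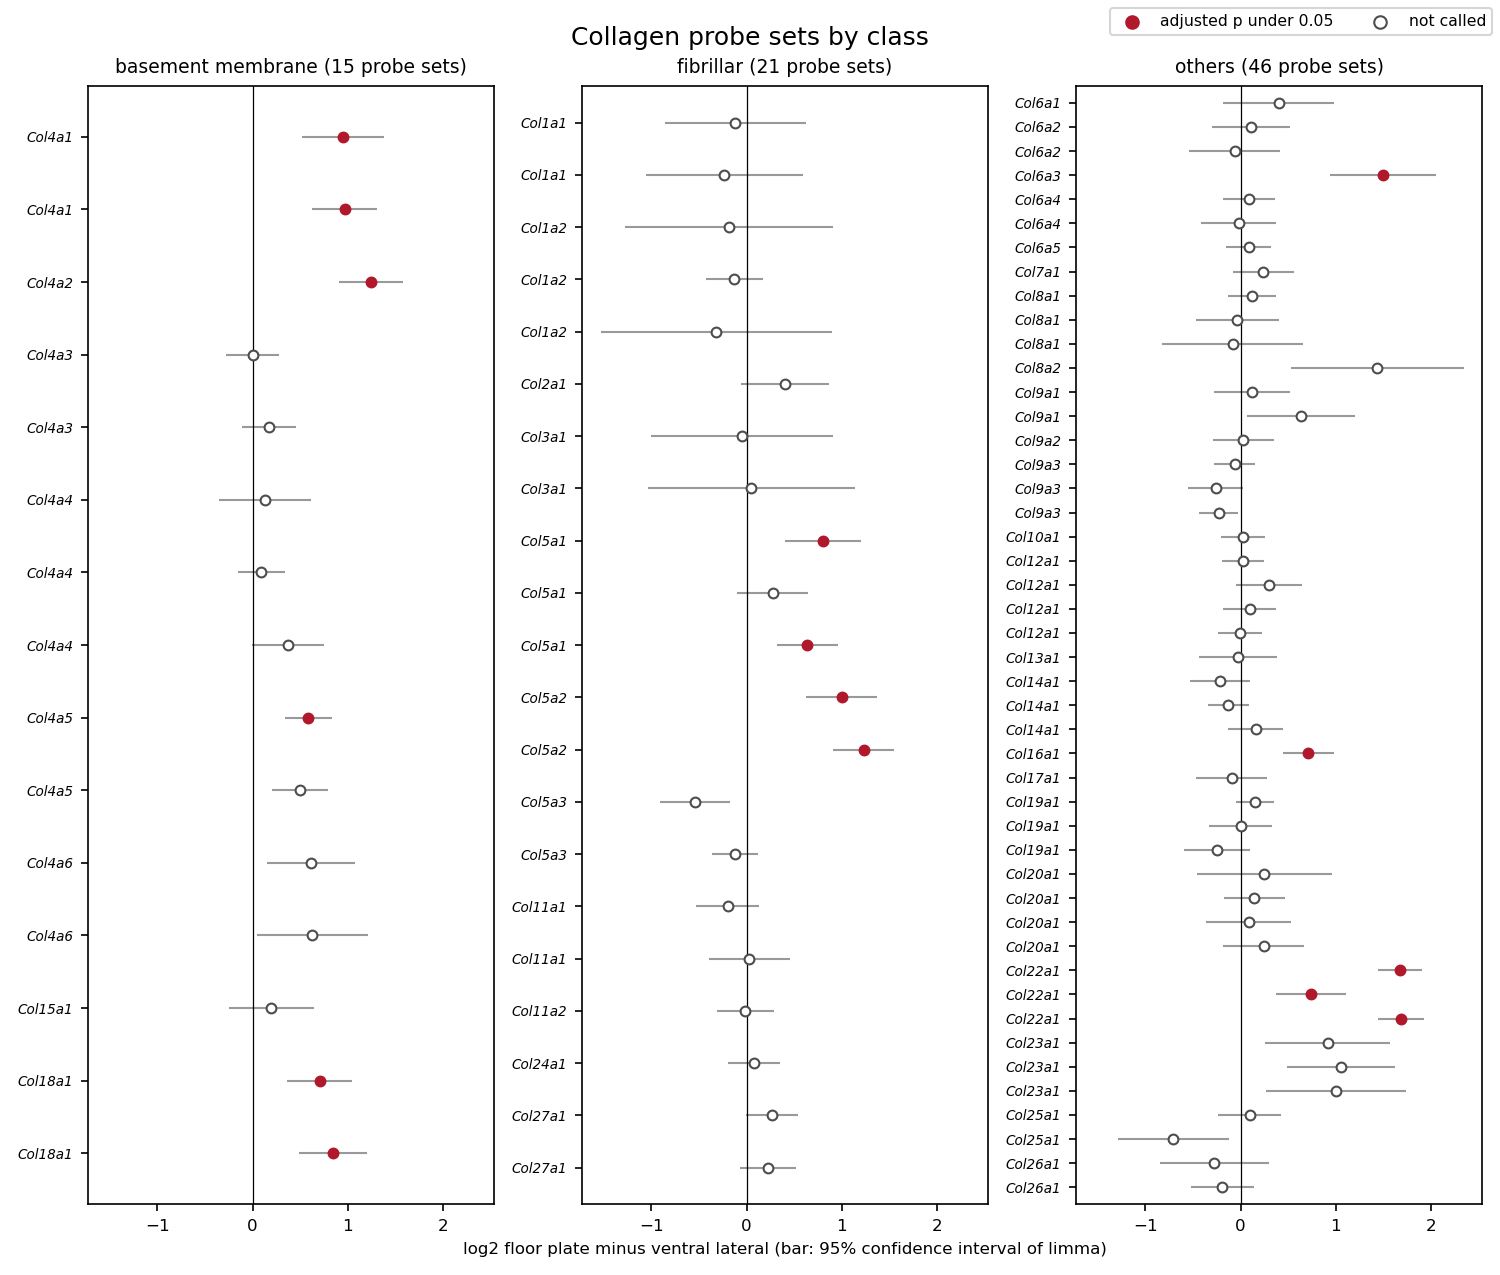
Difference between floor plate and ventral lateral arrays (x axis, log2) for each of the 82 collagen probe sets, in 3 panels by class, 1 line per probe set, with the 95% confidence interval of limma as a bar and filled points for an adjusted p under 0.05. All 15 filled points lie to the right of 0, and all 15 points of the basement membrane panel do so, 6 of them filled.

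Basement membrane collagens were led by the 2 chains that form the widespread type IV network, Col4a1 and Col4a2, whose products join as 2 alpha-1 chains and 1 alpha-2 chain. Col4a2 (1 probe set) stood at 0.58, 0.45 and 0.48 on floor plate replicates 1, 2 and 3 and at -1.0, -0.45 and -0.76 on ventral lateral replicates 1, 2 and 3. The regions did not overlap, and the ventral lateral arrays were spread more widely than the floor plate arrays. The means were 0.50 ± 0.07 and -0.74 ± 0.27 (SD, n = 3 each), a difference of 1.24 (SE 0.14) or 2.36-fold with limma's adjusted p of 0.0033.

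Col4a1 was measured by 2 probe sets that gave nearly the same difference, 0.95 (SE 0.18) and 0.97 (SE 0.15), with adjusted p-values of 0.0291 and 0.0106. The second stood at 0.40, 0.39 and 0.31 on the floor plate arrays and at -0.89, -0.31 and -0.61 on the ventral lateral arrays. For both genes ventral lateral replicate 2 was nearest to the floor plate and ventral lateral replicate 1 was farthest. Both chains kept their call by the mean of probe sets without any one array; of the Col4a1 probe sets, the first was called in 1 of 6 such fits and the second in 5.

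Col4a1 and Col4a2 lie head to head on chromosome 8. In the RefSeq table of mouse assembly GRCm38.p6, the windows from 250 bases before to 50 bases after each start share 78 bases on opposite strands. They are shown because the 2 genes that share this stretch were both higher in the floor plate. Capitals mark matches on either strand to a CCAAT box (CCAAT, reading ATTGG on the other strand) or a GC box (GGGCGG or CCGCCC). Each sequence runs 5′ to 3′ along its own gene, Col4a1 from chr8:11312777-11313076 on the minus strand and Col4a2 from chr8:11312555-11312854 on the plus strand.
Col4a1: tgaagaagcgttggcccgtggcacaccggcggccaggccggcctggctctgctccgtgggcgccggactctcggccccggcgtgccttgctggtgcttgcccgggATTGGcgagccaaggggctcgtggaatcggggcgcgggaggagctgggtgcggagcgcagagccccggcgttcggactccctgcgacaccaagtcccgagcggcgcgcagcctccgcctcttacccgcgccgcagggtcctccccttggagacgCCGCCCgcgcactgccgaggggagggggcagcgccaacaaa
Col4a2: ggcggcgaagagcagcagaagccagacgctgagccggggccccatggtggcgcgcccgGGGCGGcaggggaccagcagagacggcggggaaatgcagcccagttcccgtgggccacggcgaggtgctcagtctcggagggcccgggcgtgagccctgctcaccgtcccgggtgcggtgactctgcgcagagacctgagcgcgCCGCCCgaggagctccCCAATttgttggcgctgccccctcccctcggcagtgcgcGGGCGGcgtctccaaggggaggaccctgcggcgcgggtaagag

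Both windows hold a CCAAT box, once on the reverse strand in Col4a1 and once on the forward strand in Col4a2. The Col4a1 window has 1 GC box match and the Col4a2 window 3, of which 1 lies in the shared 78 bases and is the Col4a1 match read from the other strand. Neither has a TATA box (TATAAA) or the forkhead core TGTTTAC on either strand. Over the 32851 promoter windows outside chromosome 18, 37.4% hold a CCAAT box, 35.7% a GC box, 13.6% a TATA box and 3.65% the forkhead core. None of the 4 motifs contains another. A match is a description of letters in the window.

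The other type IV chains differed less. By the mean of probe sets, floor plate arrays lay above ventral lateral arrays in all 6 type IV genes, against 13.5% of all genes. For Col4a3 the nearest arrays of the regions stood at -0.03 and -0.04. Col4a5, whose chain serves in the basement membranes of kidney, skin and smooth muscle, had 2 probe sets with differences of 0.58 and 0.50, of which the first was called (adjusted p = 0.0210 and 0.0771). The gene was higher by the mean of probe sets (0.54, adjusted p = 0.0157), a call that was lost if ventral lateral replicate 1 or 3 was left out. Col4a6, its neighbour on the opposite strand of the X chromosome, differed by a similar 0.62 and 0.63 but missed the threshold (adjusted p = 0.161 and 0.263). Col4a3 and Col4a4, the chains that join Col4a5 in the kidney filter, had 5 probe sets between 0.0015 and 0.37, none called. Within each array, Col4a2 minus Col4a4 was 0.35 ± 0.13 in the floor plate and -0.69 ± 0.20 in the ventral lateral region, a gap of 1.04. That pair was 1 of 4 chosen after the values were seen, and the exact two-sided permutation test gave p = 0.1, the smallest it allows with 3 against 3 arrays (adjusted p = 0.133 over the 4 pairs).

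Col18a1 and Col15a1 encode the multiplexins, basement membrane collagens that carry heparan or chondroitin sulfate chains. Type XVIII releases the fragment endostatin. Both Col18a1 probe sets were higher in the floor plate, by 0.70 (SE 0.15, adjusted p = 0.0382) and 0.84 (SE 0.15, adjusted p = 0.0228). By the mean of probe sets the difference was 0.77, and the call was lost without floor plate replicate 1 or floor plate replicate 2. Col15a1 differed by 0.20 with overlapping regions and no call. Averaged over the 8 basement membrane genes, the floor plate arrays stood at 0.25, 0.27 and 0.20 and the ventral lateral arrays at -0.56, -0.20 and -0.25.

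**Figure D2:**
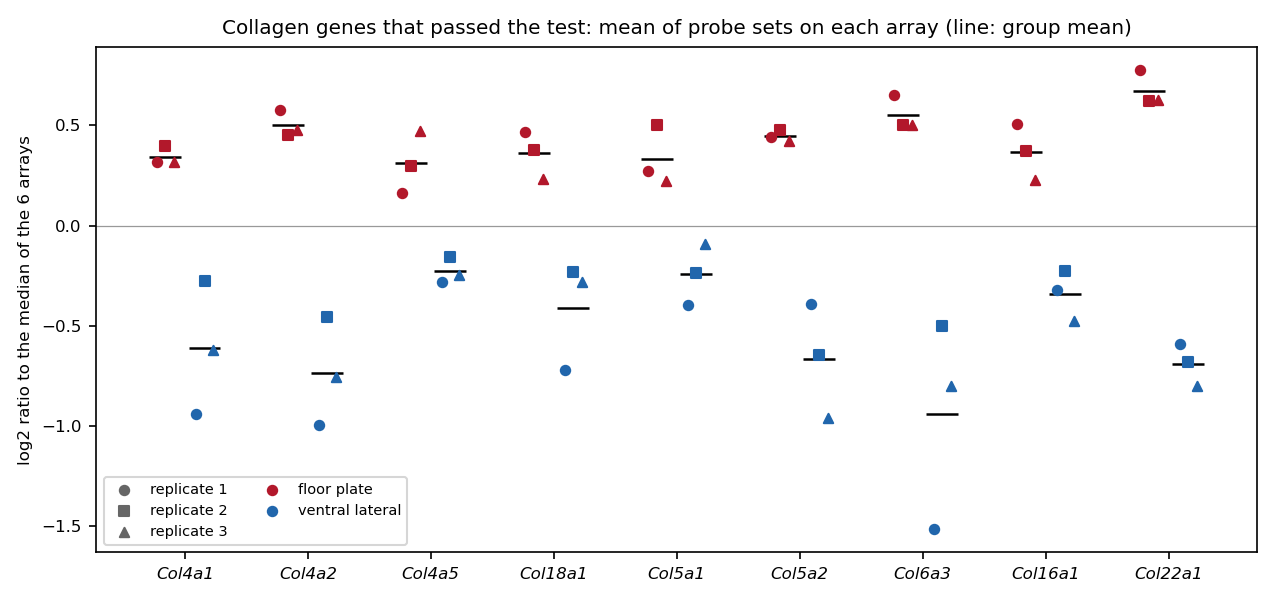
Mean of the probe sets of each collagen gene that passed the test on every array (y axis, log2 ratio to the median of the 6 arrays), red for floor plate and blue for ventral lateral, with marker shape for the replicate and a line for the group mean. No region overlaps the other for any of the 9 genes, and the ventral lateral arrays are spread most widely for Col6a3, between -1.52 and -0.50.

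Among fibrillar collagens, both called genes encode type V chains, and the main fibril-forming chains of type I and III were not called. Col5a2, the alpha-2 chain present in most type V molecules, had 2 probe sets past the threshold. The one that differed more stood at 0.56, 0.51 and 0.46 on the floor plate arrays and at -0.46, -0.71 and -0.97 on the ventral lateral arrays. The floor plate arrays were tightly grouped and lay above every ventral lateral array. The means were 0.51 ± 0.05 and -0.71 ± 0.26 (SD, n = 3 each), and the difference was 1.23 (SE 0.14), 2.34-fold, with limma's adjusted p of 0.00284. The other Col5a2 probe set differed by 1.0 (adjusted p = 0.0127), a call lost only without floor plate replicate 1 (adjusted p = 0.0513) among the fits without 1 array.

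Col5a1, the alpha-1 chain of type V, had 3 probe sets. They differed by 0.80 (SE 0.17, adjusted p = 0.0421), 0.64 (SE 0.14, adjusted p = 0.0448) and 0.27 (adjusted p = 0.467), so 2 of 3 passed. By their mean the gene was higher by 0.57 (adjusted p = 0.0217), but this call held in only 2 of 6 fits without 1 array. Leaving out replicate 1 or 2 of either region ended it.

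Col5a3, the third type V chain, ran the other way without passing the test. Its 2 probe sets differed by -0.54 and -0.12 (adjusted p = 0.124 for the first), and by their mean all 3 floor plate arrays lay below all 3 ventral lateral arrays. Leaving out floor plate replicate 2 made the first probe set a call for lower. Within arrays, Col5a2 minus Col5a3 was 0.66 ± 0.17 in the floor plate and -0.79 ± 0.32 in the ventral lateral region, a gap of 1.45 (exact two-sided permutation p = 0.1, adjusted p = 0.133 over 4 pairs). Col5a3 was singled out after its values were seen.

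Col1a1 and Col1a2, which together form type I collagen, and Col3a1, the single chain of type III, had 7 probe sets with differences between -0.32 and 0.05 and adjusted p-values between 0.716 and 0.975. By the mean of probe sets, Col1a1 stood at -0.48, 0.69 and -0.18 on floor plate replicates 1, 2 and 3 and at -0.26, 0.66 and 0.16 on ventral lateral replicates 1, 2 and 3. Col1a2 stood at -0.73, 0.41 and -0.18 in the floor plate and at -0.53, 0.40 and 0.26 in the ventral lateral region. Col3a1 stood at -0.42, 1.0 and -0.08 in the floor plate and at -0.48, 0.91 and 0.08 in the ventral lateral region. All 3 genes overlapped between regions, and arrays of the same region differed by more than 1 log2 unit from lowest to highest for Col1a1, Col1a2 and Col3a1 in the floor plate.

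These chains were low on replicate 1 and high on replicate 2 of both regions. In 6 of their 7 probe sets replicate 1 was lowest and replicate 2 highest in each region, an order seen in 2.58% of all probe sets and, after these values were seen, in 12 of 82 collagen probe sets. The 95% confidence intervals are accordingly wide, from -0.99 to 1.0 for Col3a1, from -0.93 to 0.58 for Col1a1 and from -0.96 to 0.54 for Col1a2. A difference as large as that of Col4a1 was thus within the interval of Col3a1, and a missed threshold does not show equal levels. Within arrays, Col5a2 minus Col1a2 was 0.61 ± 0.55 in the floor plate and -0.71 ± 0.74 in the ventral lateral region (exact two-sided permutation p = 0.2, adjusted p = 0.2 over 4 pairs).

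Col2a1, the type II chain of cartilage that is also found in the notochord and early neuroepithelium, had 1 probe set. It stood at -0.0021, 0.20 and 0.24 on the floor plate arrays and at -0.72, -0.05 and 0.0021 on the ventral lateral arrays, with 1 array of each region next to the median. The difference of 0.40 (SE 0.20) did not pass (adjusted p = 0.372). The other fibrillar genes, Col11a1, Col11a2, Col24a1 and Col27a1, lay between -0.08 and 0.24 by the mean of probe sets and were not called.

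**Figure D3:**
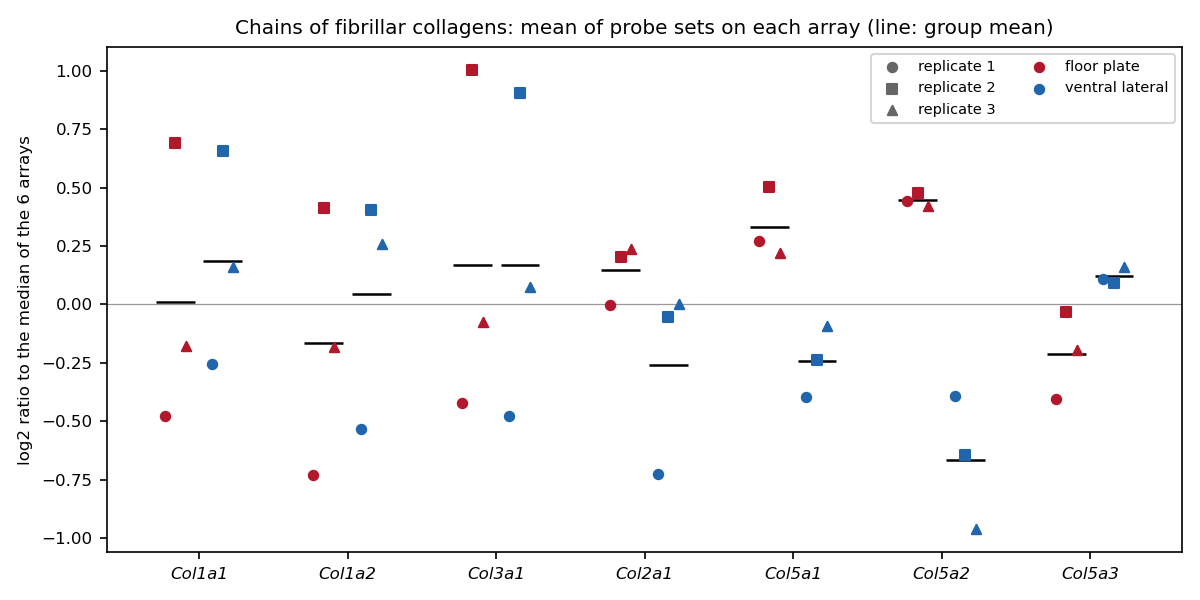
Mean of the probe sets of 7 fibrillar collagen genes on each array (y axis, log2 ratio to the median of the 6 arrays), red for floor plate and blue for ventral lateral, with marker shape for the replicate and a line for the group mean. Col1a1, Col1a2 and Col3a1 separate by replicate number and overlap between regions, whereas Col5a1 and Col5a2 separate by region and Col5a3 lies slightly lower in the floor plate.

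Of the remaining collagens, Col22a1, Col6a3 and Col16a1 were higher in the floor plate. Col22a1 encodes a collagen of the fibril-associated group, whose helix is interrupted, and is best known from tissue junctions such as that of muscle and tendon. Its most different probe set stood at 0.81, 0.77 and 0.82 on the floor plate arrays and at -0.77, -0.83 and -1.04 on the ventral lateral arrays. Both regions were tight around their means of 0.80 ± 0.03 and -0.88 ± 0.14 (SD, n = 3 each). The difference of 1.68 (SE 0.10), 3.21-fold, had limma's adjusted p of 0.000276 and was the largest among the 82 probe sets. A second probe set gave 1.68 as well (adjusted p = 0.000255) and the third 0.74 (adjusted p = 0.0420), so the 3 probe sets agreed in direction and not in size. Both larger calls held without any one array, and the third held in 1 of 6 such fits.

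Col6a3 encodes the long alpha-3 chain of type VI collagen, which forms beaded microfilaments together with the chains of Col6a1 and Col6a2. Its probe set stood at 0.65, 0.50 and 0.50 on the floor plate arrays and at -1.52, -0.50 and -0.80 on the ventral lateral arrays. The ventral lateral arrays lay far apart, with replicate 1 lowest, and did not reach the floor plate arrays. The means were 0.55 ± 0.09 and -0.94 ± 0.52 (SD, n = 3 each), the difference 1.49 (SE 0.24), 2.82-fold, and limma's adjusted p 0.0124. The call of this probe set was lost without floor plate replicate 1 (adjusted p = 0.0623). Its partner chains did not pass: Col6a1 differed by 0.40 and the 2 probe sets of Col6a2 by 0.11 and -0.06. Within arrays, Col6a3 minus Col6a1 was 0.41 ± 0.35 in the floor plate and -0.68 ± 0.32 in the ventral lateral region (exact two-sided permutation p = 0.1, adjusted p = 0.133 over 4 pairs).

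Col16a1, another fibril-associated collagen, was higher by 0.71 (SE 0.12, adjusted p = 0.0139). Its means were 0.37 ± 0.14 in the floor plate and -0.34 ± 0.13 in the ventral lateral region (SD, n = 3 each), without overlap. This probe set was called in 3 of 6 fits without 1 array, and in all 6 when the fit ran on gene means. The promoter windows of Col16a1 (GRCm38.p6 chr4:130047590-130047889, plus strand) and Col6a3 (chr1:90843922-90844221, minus strand) are shown as called genes from outside the basement membrane class that differ in these motifs. Capitals again mark CCAAT and GC boxes on either strand.
Col16a1: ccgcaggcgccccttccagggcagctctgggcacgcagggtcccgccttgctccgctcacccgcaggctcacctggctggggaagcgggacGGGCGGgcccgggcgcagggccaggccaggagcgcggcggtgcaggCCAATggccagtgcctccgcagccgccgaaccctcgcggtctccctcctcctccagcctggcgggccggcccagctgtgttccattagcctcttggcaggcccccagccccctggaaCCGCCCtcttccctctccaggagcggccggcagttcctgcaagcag
Col6a3: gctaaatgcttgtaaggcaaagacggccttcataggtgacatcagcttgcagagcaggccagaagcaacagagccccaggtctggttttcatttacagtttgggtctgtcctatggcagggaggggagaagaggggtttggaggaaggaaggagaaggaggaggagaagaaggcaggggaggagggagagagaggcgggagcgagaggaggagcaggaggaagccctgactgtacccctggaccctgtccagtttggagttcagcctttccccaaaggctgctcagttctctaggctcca

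The Col16a1 window holds 1 CCAAT box and 2 GC box matches, and the Col6a3 window holds none of the 4 motifs. Windows were listed for 33 of 42 collagens, and for 7 of the 9 called genes in 8 windows. Col5a2 and Col22a1 had none. A CCAAT box was found in 5 of these 8 windows and in 8 of 28 windows of the other collagens. A GC box was found in 6 of 8 and in 16 of 28 (the site shared by Col4a1 and Col4a2 counts in both windows), a TATA box in 0 of 8 and 5 of 28, and the forkhead core in 0 of 8 and 1 of 28. The median GC content was 68.5% in the called windows, 58.83% in those of the other collagens and 52.67% over the 32851 windows outside chromosome 18. The part of GC content in the motif counts was not tested. These are counts of letters, and nothing about a binding factor follows from them.

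Some uncalled collagens differed by as much as called ones, and are named here after their values were seen. Col8a2, a short-chain collagen of the cornea and vessel wall, stood at 0.21, 0.62 and 1.79 on the floor plate arrays and at -0.49, -0.98 and -0.21 on the ventral lateral arrays. The regions did not overlap, but floor plate replicate 3 stood far above the other 2, and the difference of 1.43 had an adjusted p of 0.0977. Col23a1, a transmembrane collagen, differed by 0.91, 1.06 and 1.0 on its 3 probe sets (adjusted p = 0.143, 0.0566 and 0.15). The second was called higher after quantile normalization, with only 1-symbol probe sets tested and without ventral lateral replicate 2, and the third in the last of these. The most negative difference of any collagen was -0.71 for a Col25a1 probe set (adjusted p = 0.204), which was called lower once ventral lateral replicate 3 was left out. None of 7 transmembrane, 5 short-chain or 1 anchoring fibril (Col7a1) probe sets was called. With 2.70% of all probe sets called higher and 2.01% lower, a count of 0 does not set groups of this size apart. In the fibril-associated group 4 of 24 were called, all of Col22a1 and Col16a1, and the probe sets of Col9a1, Col9a2, Col9a3, Col12a1, Col14a1, Col19a1 and Col20a1 were not.

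Genes that act on collagens were read from lists of their enzymes, chaperones and partners, with the probe sets of each gene averaged. In the list for folding, modification and export, 9 of 22 genes were higher and 0 lower, around a median of 0.24 (all genes -0.0040; background 4.55% higher). At an unadjusted p under 0.05, 12 of the 22 were higher and 0 lower, against 10.6% and 9.65% of all genes. P3h2, a prolyl 3-hydroxylase that acts on type IV collagen, stood at 0.92, 0.89 and 1.02 on the floor plate arrays and at -1.56, -0.89 and -1.35 on the ventral lateral arrays. Its difference of 2.21 (SE 0.16) had an adjusted p of 0.000221. P4ha3, a catalytic subunit of the prolyl 4-hydroxylase that stabilises the helix, was higher by 1.69 (adjusted p = 8.5e-05). Plod2, the lysyl hydroxylase of the telopeptides, was higher by 1.42 (adjusted p = 0.00849). Serpinh1, the collagen chaperone HSP47, was higher by 0.93 (adjusted p = 0.0371). Neither of its probe sets passed in the limma fit of probe sets (adjusted p = 0.0658 and 0.0579).

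P3h2, P4ha3 and Plod2 kept their call without any one array, whereas Serpinh1 kept it in 1 of 6 such fits. The other genes called were P3h1, P3h4, Crtap, Colgalt2 and P4ha1, with differences from 0.39 to 0.71. The only Colgalt2 probe set did not pass in the limma fit of probe sets (adjusted p = 0.067). Without 1 array the count in this list was between 3 and 6, lowest without floor plate replicate 3, then 4 without ventral lateral replicate 3, 5 without replicate 1 of either region, and 6 without replicate 2 of either region. With the lowest-numbered probe set of each gene it was 5.

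Of 12 genes for procollagen processing and cross-linking, 4 were higher and 0 lower, around a median of 0.28 (background 4.55% and 3.58% of genes). At an unadjusted p under 0.05, 7 were higher and 0 lower, against 10.6% and 9.65% of all genes. Lox, the lysyl oxidase that starts cross-linking, stood at 0.76, 0.49 and 1.30 on the floor plate arrays and at -0.78, -0.55 and -0.66 on the ventral lateral arrays. The difference was 1.52 (SE 0.19, adjusted p = 0.00283), made of 2 probe sets at 2.21 and 1 at 0.13. Adamts3, a procollagen N-propeptidase, was higher by 0.94 (adjusted p = 0.0307) although its probe sets ran apart at 2.09 and -0.21. Pcolce, the enhancer of C-propeptide removal, and Loxl1 were higher by 0.94 and 0.54 (adjusted p = 0.041 and 0.0279). Neither Pcolce probe set passed in the limma fit of probe sets (adjusted p = 0.0521 and 0.0906). Lox was called without any one array, and the other 3 in 1 of 6 such fits each. The list count was then 1 without replicate 1 or 3 of either region, 2 if floor plate replicate 2 was left out and 3 if ventral lateral replicate 2 was.

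Of 10 collagen receptors, 0 passed in either direction in limma, around a median of 0.03, and at an unadjusted p under 0.05 there was 1 in each direction. With 4.55% of all genes called higher and 3.58% lower, a count of 0 in a list of this size does not set it apart, and the difference from the enzyme lists was not tested. One of them, the integrin chain Itga2, named after its values were seen, differed by -0.49 (adjusted p = 0.051). Leaving out floor plate replicate 2 gave 1 receptor called lower. Among 12 small leucine-rich proteoglycans, which coat collagen fibrils, 0 likewise passed, around a median of 0.07, and 1 was higher and 0 lower at an unadjusted p under 0.05.

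The other basement membrane components had calls in both directions, the lower one of Lama1 alone. Of 14, 4 were higher and 1 lower (background 4.55% and 3.58% of genes), around a median of 0.13. At an unadjusted p under 0.05, 6 were higher and 1 lower, against 10.6% and 9.65% of all genes. The laminin chains Lama2 and Lamb2 were higher by 1.16 (adjusted p = 0.00183) and 0.99 (adjusted p = 0.00175), and kept their calls without any one array. Nid2, which links laminin to type IV collagen, and Lamc1, the common laminin gamma-1 chain, were higher by 0.94 (adjusted p = 0.0186) and 0.59 (adjusted p = 0.0155). Without floor plate replicate 2 these 2 calls were lost and 2 of 4 remained. Both were also lost without floor plate replicate 3, and that of Nid2 also without ventral lateral replicate 3. Lama1, the early embryonic laminin chain, was lower by 0.46 (difference -0.46, adjusted p = 0.0386). This call held only without ventral lateral replicate 1 among the 6 fits without 1 array. The only Lama1 probe set did not pass in the limma fit of probe sets (adjusted p = 0.0766). Lama5, named after its values were seen, had 3 probe sets at 1.04, 0.96 and -0.25 (adjusted p = 0.032, 0.033 and 0.39). By their mean it differed by 0.58 and was not called (adjusted p = 0.0692).

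**Figure D4:**
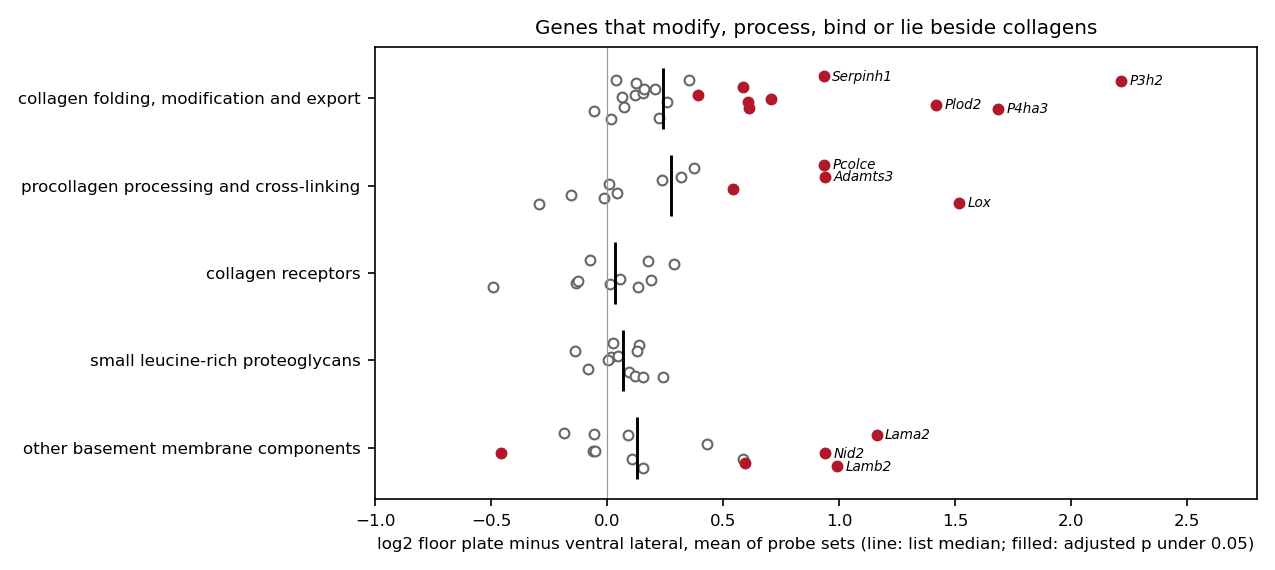
Difference between floor plate and ventral lateral arrays (x axis, log2, averaged over the probe sets of each gene) for every gene of 5 lists, 1 row per list, with filled points for an adjusted p under 0.05, a line at each list's median and names for called genes that differ most. The folding and modification list has 9 of 22 filled points, all to the right of 0, while the receptor and proteoglycan lists have 0.

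Markers of other cells that make collagen were read on the same arrays. In pieces of tissue, fewer cells of a type and less RNA per cell cannot be told apart. Of 14 endothelial markers 0 were higher and Cldn5 was lower (difference -0.68), and the mean of the list lay between -0.17 and 0.04 on the floor plate arrays and between -0.05 and 0.14 on the ventral lateral arrays. Of 8 pericyte markers Vtn alone was higher (3.01, adjusted p = 0.00288) and 0 were lower, also at an unadjusted p under 0.05. List means lay between 0.13 and 0.25 in the floor plate and between -0.38 and -0.07 in the ventral lateral region. Without Vtn the means of the other 7 lay between -0.02 and 0.15 in the floor plate and between -0.10 and 0.05 in the ventral lateral region, and overlapped. These 7 differed by between -0.13 (Notch3) and 0.29 (Abcc9), among them Pdgfrb by 0.08 with overlapping regions.

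Of 15 markers of mesenchyme and meninges, 2 were higher and 0 lower, namely Twist1 (2.11, adjusted p = 0.00433) and Postn (1.70, adjusted p = 0.00166). Differences in this list ran from -0.61 (Foxc1) to 2.11, with Pdgfra at 0.02. At an unadjusted p under 0.05 the list had 3 higher and 2 lower, against 10.6% and 9.65% of all genes, and 4.55% and 3.58% of all genes were called after adjustment. The mean of the list was -0.07, 0.23 and 0.02 on floor plate replicates 1, 2 and 3 and -0.39, 0.03 and -0.22 on ventral lateral replicates 1, 2 and 3. Replicate 1 was thus lowest and replicate 2 highest in both regions, the order seen for Col1a1, Col1a2 and Col3a1. Of 4 neural crest markers 0 were higher and Ednrb was lower (difference -0.45, adjusted p = 0.0415). This call held in 1 of 6 fits without 1 array, and the 3 Ednrb probe sets differed by -0.54, -0.09 and -0.74. Of 7 erythroid, 6 macrophage and 6 surface ectoderm markers, 0 passed in limma. The part of these cells in the collagen differences was not tested, and centred values cannot show whether a marker was near background. The floor plate markers themselves averaged -2.07, -1.07 and -2.69 on ventral lateral replicates 1, 2 and 3, so replicate 2 was nearest to the floor plate. By the mean of probe sets the same array was nearest for 6 of the 9 called collagen genes, replicate 1 was nearest for Col5a2 and Col22a1, and replicate 3 for Col5a1. The share over all genes was not counted, and a link between the collagens and the floor plate markers on these arrays was not tested. Notochord markers were not analysed here.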

How the data were processed

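Per the submitters' processing notes the arrays were processed with RMA (version not stated). The deposited values are log ratios, read here as log2: 0 of 45101 probe sets had a median over the 6 arrays farther than 1e-05 from 0, so the authors' table holds no absolute level. Scale, centring and direction are not stated. Array medians lay between -0.0031 and 0.0045. Of the probe sets, 64 were controls, 34945 had 1 gene symbol in the platform annotation, 932 several and 9160 none, and all 82 collagen probe sets matched RefSeq GRCm38.p6.

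The fit (limma 3.58.1 in R 4.3.3, lmFit then eBayes) ran on 45037 probe sets and on the means of probe sets of 18193 genes, without a low-value filter, at a Benjamini-Hochberg adjusted p of 0.05. The script was tested on simulated data. Python 3.11.15 and pandas 2.3.3 joined the tables. Every collagen gene with a call is named, with values on each array for calls of at least 1 log2 unit and for Col1a1, Col1a2, Col2a1, Col3a1, Col4a1 and Col4a2, and up to 4 called genes of each other list with the largest differences. Uncalled chains given beside called ones (Col4a3, Col4a4, Col4a6, Col15a1, Col5a3, Col6a1, Col6a2) were named after their values were seen. Members and lists were chosen with earlier results of these data known. Alternatives were quantile normalization, array weights, a block for the replicate number, 1 probe set per gene, other thresholds and leaving out each array.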

Additional observations from a re-analysis of the deposited data

How the results depend on the processing

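No difference that passed the threshold changed its sign under the alternatives. The sign changed in 13 comparisons of 6 uncalled probe sets of Col1a1, Col1a2 and Col3a1, all with 1 array left out, to values between -0.41 and 0.27. Of 745 comparisons over 55 differences, 624 kept their side of the threshold and 121 lost a call, 102 of these with 1 array left out. The 55 were called probe sets and genes, and the uncalled probe sets of Col1a1, Col1a2, Col2a1 and Col3a1. Uncalled probe sets outside this tally, such as those of Col23a1, Col8a2, Col5a3 and Col25a1, gained calls under some alternatives. Collagen probe sets called higher numbered 4 at an adjusted p of 0.01 and 5 with a fold of at least 2, where 4 genes remained. Without 1 array there were between 6 and 13 probe sets higher and between 0 and 1 lower, the latter Col5a3 without floor plate replicate 2 and Col25a1 without ventral lateral replicate 3. The median difference then lay between 0.42 and 0.61 in the basement membrane class and between 0.038 and 0.14 in the remaining collagens. It lay between -0.10 and 0.18 in the fibrillar class, so its sign is not fixed. Folding and modification genes called higher numbered 5 with the lowest-numbered probe sets and between 3 and 6 without 1 array. Processing genes numbered between 1 and 3 without 1 array, and other basement membrane components between 2 and 4. In the latter list the genes lower numbered 0 with the replicate block, with the most variable probe set and with the lowest-numbered one, and between 0 and 1 without 1 array. Receptors lower numbered 1 with the replicate block and 1 after quantile normalization, and between 0 and 1 without 1 array. The cause was not tested, other than that leaving out an array leaves fewer samples.

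The labels do not say whether replicate numbers pair the samples, and the main fit assumed no pairs. Weak correlations cannot settle this. Over all probe sets, deviations from the group means correlated at 0.0096, 0.125 and 0.114 between same-numbered arrays. Floor plate replicates 2 and 3 correlated best with their own number, and replicate 1 with another. Over the collagen probe sets alone the correlations between same-numbered arrays were 0.419, 0.556 and 0.290, a hint from the data and not from the design. With the replicate block both Col18a1 probe sets (adjusted p = 0.0688 and 0.0535), the called Col4a5 probe set (0.0543) and 1 of the called Col5a1 probe sets (0.071) lost their calls, while Col8a2 gained one, and the means of probe sets of the 9 called genes kept theirs. In all, 12 collagen probe sets and 11 collagen genes were higher and 0 lower.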
